A study of Mus musculus with 36 samples.

Results

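RNA made between 30 and 60 min after the addition of IFN gamma was compared with RNA made over the same 30 min in mock-treated cells, on 3 arrays of each group, 6 of the 36 arrays of the series. The arrays were chosen by their labels alone, and every gene of the table entered the comparison. The cells were NIH-3T3, an established line of mouse embryo fibroblasts, between passages 5 and 15 after thawing. Both groups received fresh, warmed medium, with 100 U/ml of IFN gamma in the treated dishes and with mock in the others, and both received 4-thiouridine (4sU) at 500 µM from 30 min until harvest at 1 h. Cells build 4sU into the RNA they transcribe while it is present, so that the labelled fraction can be separated from RNA made earlier. A value therefore reports the RNA that was made in the 30 min and still present at its end. All groups shared the medium change, and mock cells are not untouched cells. IFN alpha at 100 U/ml in the same window, and IFN gamma and mock labelled at 0-30 min or 150-180 min, served for comparison. The labels number the arrays of a group from 1 to 3 but do not state that they were separate cultures, so the p-values measure the spread between arrays, which may be technical.

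IFN gamma, the type II interferon, binds a receptor whose associated Janus kinases phosphorylate a STAT protein, and the STAT dimer moves to the nucleus and binds the GAS element, a palindromic site in the promoters of primary targets. Among those targets is Irf1, a transcription factor that binds the related ISRE and drives later genes. The products include GTPases that attack the vacuoles of intracellular pathogens, the machinery that loads peptides onto MHC class I, chemokines that attract T cells, and SOCS proteins that end the signal. Type I interferons such as IFN alpha activate mainly ISGF3, a complex of 2 STAT proteins with IRF9 that binds the ISRE.

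Of 9549 genes tested, 365 were called higher and 197 lower in IFN gamma cells than in mock cells, at an adjusted p under 0.05 in limma with Benjamini-Hochberg adjustment over all genes. These were 3.82% and 2.06% of the genes, and the median log2 difference of all genes was -0.05. The rises were larger than the falls. Among the higher genes the median log2 difference was 1.19, a 2.29-fold rise, 228 changed at least 2-fold and 42 at least 8-fold. The lower genes had a median of -0.76, or 0.59 of mock, and 46 of them fell at least 2-fold and 0 at least 8-fold. The 3 IFN gamma arrays lay wholly above the 3 mock arrays in 356 of the 365 and wholly below in 189 of the 197, where 8.25% and 11.16% of all genes did so. In 68 of the higher genes the mock mean was under log2 4, close to the lowest values of the table, so that a fold change there is a ratio to background.

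Same-numbered IFN gamma and mock arrays deviated together, and a fit with the array number as a block called 549 genes higher (5.75%) and 612 lower (6.41%), including all 365 and all 197 of the first fit. The rises depended little on single arrays: 267 of the 365 stayed called in each of the 6 fits without 1 array. Only 70 of the 197 lower genes did, and their number was 130 without IFN gamma array 1. From the 6 arrays alone, with no spread borrowed from other groups, 274 of the 365 and 81 of the 197 were called. Errors beside log2 differences below are standard errors of the fit with 3 arrays in each group. Counts against mock cells within lists below compare with 3.82% higher and 2.06% lower over all genes, and 5.75% and 6.41% with the block.

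**Figure D1:**
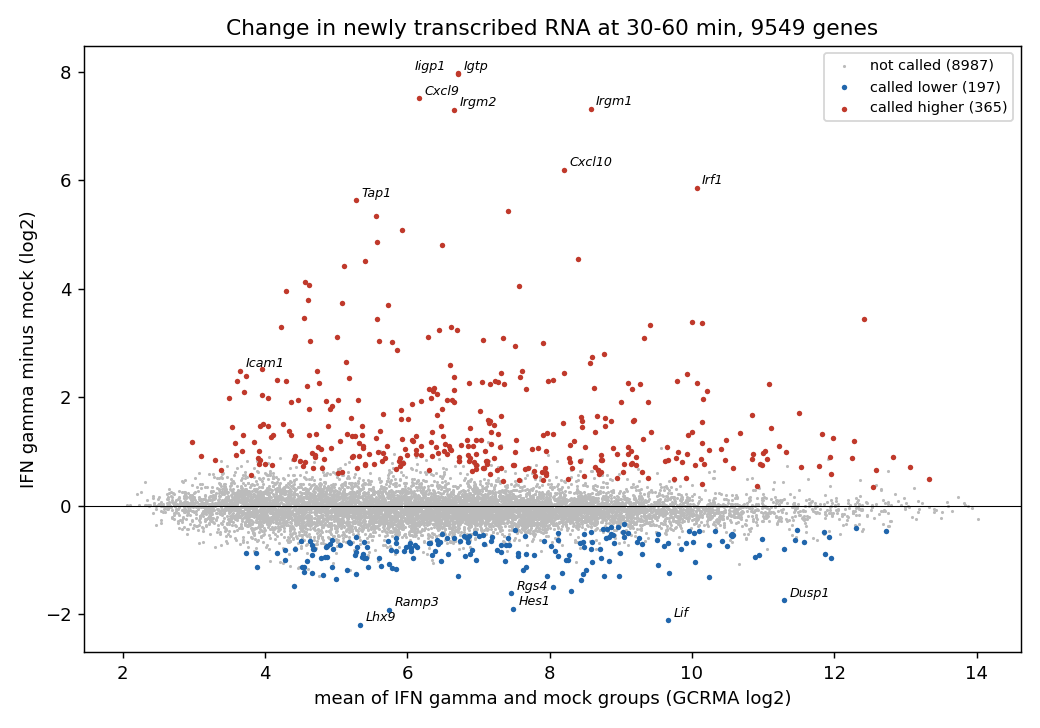
Each point is 1 of 9549 genes, with the mean of the IFN gamma and mock groups (GCRMA log2) on the x axis and IFN gamma minus mock (log2) on the y axis. Red points are the 365 genes called higher and blue points the 197 called lower, and the rises reach log2 7.97 where the largest fall is -2.19.

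The largest rises belonged to the immunity-related GTPases (IRG), proteins that gather on and break the vacuoles of parasites and bacteria. All 5 tested IRG genes were called higher, with a median log2 difference of 7.32. Iigp1 read 10.68, 10.73 and 10.68 in the IFN gamma arrays, against 2.54, 2.36 and 3.28 in the mock arrays (GCRMA log2). That is a difference of 7.97 ± 0.36 (SE, adjusted p = 3.5e-17), over a mock level near background. Igtp, also called Irgm3, read 10.65, 10.66 and 10.75 in IFN gamma cells, against 2.20, 3.07 and 2.91 in mock cells. Irgm1, a regulatory IRG protein, was the member with a measurable mock level, 12.10, 12.26 and 12.34 in IFN gamma cells against 4.98, 5.00 and 4.77 in mock cells, and its difference was 7.32 ± 0.28 (adjusted p = 2.9e-19). Irgm2 (7.30 ± 0.24) and Ifi47 (5.08 ± 0.33) completed the set, and in each of the 5 every IFN gamma array was above every mock array by a wide gap.

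Guanylate-binding proteins, larger GTPases that act on the same vacuoles, came next, with 4 of 6 tested members called higher and a median of 4.64. Gbp2 read 9.87, 10.28 and 10.26 in IFN gamma cells, against 5.07, 4.38 and 4.65 in mock cells, a difference of 5.44 ± 0.35 (adjusted p = 1.6e-13). The differences of Gbp7, Gbp6 and Gbp3 were 5.35 ± 0.35, 4.87 ± 0.31 and 4.42 ± 0.34. Gbp2b and Gbp8 gave no such reading. Gbp2b lay at 2.05 to 2.06 on all 6 arrays, and Gbp8 between 2.79 and 2.88 in IFN gamma cells and between 2.75 and 2.84 in mock cells. IRG and GBP genes are families of close paralogs, so a probe set may read more than 1 member.

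The promoters of 6 genes that rose and carry a GAS-like match, and of 1 gene that fell, are printed. They are RefSeq windows of the GRCm38.p6 build, 250 bases before to 50 bases after the annotated start. The 6 were taken in order of adjusted p among the genes named by rule with a GAS-like match. The lower gene, Dusp1, holds a CRE match, while Rgs4, a lower gene with a smaller adjusted p, holds none of the patterns below. GAS and ISRE are the sites described above for interferon signalling. Capitals mark matches, on either strand, to the GAS pattern TTCNNNGAA, the ISRE core GAAANNGAA, a part of the NF-kB site GGGANTTTC or the CRE TGACGTCA. The higher genes are Irf1 (chr11:53769764-53770063, plus strand), Irgm2 (chr11:58214727-58215026, plus strand), Igtp (chr11:58199306-58199605, plus strand), Samhd1 (chr2:157135047-157135346, minus strand), Socs3 (chr11:117969317-117969616, minus strand) and Icam1 (chr9:21015690-21015989, plus strand), and the lower gene is Dusp1 (chr17:26508423-26508722, minus strand).
Irf1: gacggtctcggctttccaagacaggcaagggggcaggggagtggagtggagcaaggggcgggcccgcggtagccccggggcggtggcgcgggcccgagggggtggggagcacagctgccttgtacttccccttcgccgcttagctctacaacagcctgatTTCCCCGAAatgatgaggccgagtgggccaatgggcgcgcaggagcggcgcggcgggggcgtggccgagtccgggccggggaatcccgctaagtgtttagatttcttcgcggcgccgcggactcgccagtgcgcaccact
Irgm2: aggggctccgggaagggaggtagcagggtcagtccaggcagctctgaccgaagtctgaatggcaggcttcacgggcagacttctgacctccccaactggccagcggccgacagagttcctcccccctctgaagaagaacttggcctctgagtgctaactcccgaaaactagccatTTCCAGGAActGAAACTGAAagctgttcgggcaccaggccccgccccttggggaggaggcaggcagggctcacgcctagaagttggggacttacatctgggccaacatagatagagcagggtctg
Igtp: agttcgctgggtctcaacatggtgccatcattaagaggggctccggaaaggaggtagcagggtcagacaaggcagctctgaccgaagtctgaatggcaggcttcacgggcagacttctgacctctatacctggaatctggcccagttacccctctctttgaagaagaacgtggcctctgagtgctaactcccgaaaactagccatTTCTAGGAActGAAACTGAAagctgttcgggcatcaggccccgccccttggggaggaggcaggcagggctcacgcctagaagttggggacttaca
Samhd1: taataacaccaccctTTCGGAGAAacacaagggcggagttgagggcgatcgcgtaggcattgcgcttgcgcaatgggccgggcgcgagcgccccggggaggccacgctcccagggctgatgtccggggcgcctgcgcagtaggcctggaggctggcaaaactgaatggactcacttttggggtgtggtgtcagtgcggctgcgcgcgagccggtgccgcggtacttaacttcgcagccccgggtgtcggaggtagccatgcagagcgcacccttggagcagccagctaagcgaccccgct
Socs3: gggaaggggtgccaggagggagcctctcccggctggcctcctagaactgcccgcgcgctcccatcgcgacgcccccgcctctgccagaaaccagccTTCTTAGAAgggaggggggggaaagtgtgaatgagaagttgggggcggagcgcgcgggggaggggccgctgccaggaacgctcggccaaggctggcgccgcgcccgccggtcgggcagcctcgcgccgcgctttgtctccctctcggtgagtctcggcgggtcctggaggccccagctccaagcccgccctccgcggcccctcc
Icam1: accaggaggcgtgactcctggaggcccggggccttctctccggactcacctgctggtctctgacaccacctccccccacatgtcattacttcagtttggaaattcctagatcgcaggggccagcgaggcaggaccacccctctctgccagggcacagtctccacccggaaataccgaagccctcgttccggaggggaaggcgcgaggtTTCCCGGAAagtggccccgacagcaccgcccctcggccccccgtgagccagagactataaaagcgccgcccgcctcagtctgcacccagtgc
Dusp1: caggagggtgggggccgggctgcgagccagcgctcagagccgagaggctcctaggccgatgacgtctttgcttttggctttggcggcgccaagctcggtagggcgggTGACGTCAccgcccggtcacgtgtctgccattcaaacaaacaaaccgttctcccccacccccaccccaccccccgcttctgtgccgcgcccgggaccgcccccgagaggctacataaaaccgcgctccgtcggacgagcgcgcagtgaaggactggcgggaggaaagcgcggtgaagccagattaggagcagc

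Irf1 holds TTCCCCGAA at position -90 from its start, and Socs3 holds TTCTTAGAA at -154. In the neighbouring genes Irgm2 and Igtp the GAS-like match is followed within a few bases by an ISRE core, GAAACTGAA, at -64 in Irgm2 and at -34 in Igtp. Icam1 holds TTCCCGGAA at -42, Samhd1 holds TTCGGAGAA at -235, and Dusp1 holds the palindromic CRE at -143. Over all genes with a promoter window, the GAS pattern was present in 57 of 299 higher genes (19.1%), 7 of 146 lower genes (4.79%) and 619 of 7826 tested genes (7.91%). The ISRE core was present in 51 of the higher genes (17.1%), 7 of the lower genes (4.79%) and 646 of the tested genes (8.25%), and in 12 of the 32 genes with a window that rose at least 8-fold (37.5%). The NF-kB part was in 2.68% of the higher, 0% of the lower and 1.06% of the tested genes, and the CRE in 1.67%, 4.11% and 3.88%. Of all 32851 windows, 8.30% hold the GAS pattern, 8.56% the ISRE core, 1.11% the NF-kB part and 1.79% the CRE. The ISRE core and the NF-kB part can overlap the GAS pattern, since all contain GAA or TTC. A match is a description of letters, no test was made, and no match in this window says nothing about a factor.

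Among interferon regulatory factors and STATs, 4 of 13 tested genes were called higher, against 3.82% of all genes. Irf1 read 12.69, 13.24 and 13.05 in IFN gamma cells, against 6.95, 7.19 and 7.28 in mock cells, a 57.9-fold difference (log2 5.86 ± 0.19, adjusted p = 6.8e-21). Irf9 and Stat2, the partners in ISGF3, differed by 3.24 ± 0.17 and 3.04 ± 0.42. Stat3, which transmits IL-6 family signals, rose by 1.15 ± 0.24 (adjusted p = 0.001). The other 9 did not pass the test. Irf7, the amplifier of type I interferon production, had a mean below log2 4 in both groups, with a difference of 0.23 ± 0.28, and Irf2, a competitor of Irf1, had one of 0.31 ± 0.28. The median of the 13 was 0.12, against -0.05 over all genes.

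The receptor and kinase genes gave 1 call in 8, Ifnar2, a chain of the type I receptor (1.34 ± 0.20, adjusted p = 8.3e-06). The genes of the IFN gamma receptor itself were not called. Ifngr1, its ligand-binding chain, differed by -0.18 ± 0.24. Ifngr2, the signalling chain, read 5.39, 2.90 and 4.03 in IFN gamma cells, against 6.38, 3.85 and 5.98 in mock cells, so that each IFN gamma array lay below the mock array of its number while the groups overlapped. Its difference of -1.30 ± 0.49 had an adjusted p of 0.15 without the block and 0.00085 with it. Jak1 and Jak2, the kinases of the receptor, differed by 0.14 ± 0.14 and 0.01 ± 0.16.

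Feedback inhibitors rose in 4 of 15 tested cases, with a list median of 0.19. Socs3 read 14.16, 14.11 and 14.15 in IFN gamma cells, near the top of the table's range, against 10.58, 10.84 and 10.64 in mock cells (3.45 ± 0.15, adjusted p = 5e-18). Socs1, which binds and blocks the Janus kinases, read 7.43, 8.68 and 8.66 against 4.66, 5.06 and 5.16 in mock cells, with IFN gamma array 1 the lowest of its group (3.30 ± 0.34). Cish, another SOCS family member, rose by 2.25 ± 0.27. Ptpn1, a phosphatase of Janus kinases, rose by 0.79 ± 0.18, with an adjusted p of 0.076 from the 6 arrays alone. Socs2 differed by 0.58 ± 0.24 and did not pass (adjusted p = 0.2), and Socs6 by 0.44 ± 0.25, with an adjusted p of 0.48 without the block and 0.0068 with it.

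Of 18 tested genes linked to STAT3 and the acute phase, 9 were called higher and 2 lower, with a median of 0.55. They included Bcl3, a nuclear IkB protein (2.32 ± 0.41), Fgl2, a fibrinogen-like prothrombinase (2.30 ± 0.21), the kinase Pim3 (2.11 ± 0.15), the IL-4 receptor chain Il4ra (1.92 ± 0.20) and the transcription factor Cebpd (1.72 ± 0.25). Receptors of the IL-6 family rose with them, Il6st (gp130) by 1.00 ± 0.13 and Osmr by 0.98 ± 0.10. Bcl3 showed the pairing of array numbers: 8.34, 10.01 and 9.26 in IFN gamma cells against 6.17, 7.63 and 6.85 in mock cells, with array 2 highest and array 1 lowest in both groups. The 2 lower members were Myc (-0.66 ± 0.20) and the repressor gene Bcl6 (-0.59 ± 0.16), and neither kept its call in each fit without 1 array.

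Class I antigen presentation had 5 of 12 tested genes called higher and a median of 0.52. Tap1, a chain of the transporter that carries peptides into the endoplasmic reticulum, read 7.78, 8.41 and 8.08 in IFN gamma cells, against 2.38, 2.50 and 2.50 in mock cells (5.63 ± 0.28, adjusted p = 3.7e-16). Its partner Tap2 rose by 1.47 ± 0.25, and B2m, the light chain of class I, by 1.37 ± 0.21. The heavy chains H2-K1 (1.12 ± 0.23) and H2-D1 (1.08 ± 0.20) were called, with adjusted p of 0.11 and 0.06 from the 6 arrays alone, and these near-identical genes can share probes. Tapbp, which bridges the transporter and class I, differed by 0.82 ± 0.30 and passed only with the block (adjusted p = 0.0076, against 0.12 without it). Nlrc5, the transactivator of class I genes, lay at 2.37 or 2.38 on all 6 arrays.

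The immunoproteasome subunit Psmb9 read 5.64, 6.32 and 5.64 in IFN gamma cells, against 2.63, 2.51 and 2.56 in mock cells (3.30 ± 0.21), and the proteasome activator Psme1 rose by 0.83 ± 0.21. Psmb10, another immunoproteasome subunit, read 3.62, 3.49 and 3.51 in IFN gamma cells and 3.24, 3.49 and 3.37 in mock cells, below the level at which a gene is measured. None of the 18 constitutive proteasome subunits was called by limma, with or without the block, and their median was -0.05.

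Of 11 tested T-cell and monocyte chemokines, 5 were called higher, with a median of 0.68. Cxcl9 was at 9.87, 9.77 and 10.10 in IFN gamma cells and at background in mock cells (2.36, 2.45 and 2.42), a difference of 7.51 ± 0.48 (adjusted p = 1.5e-13). Cxcl10 read 11.15, 11.25 and 11.51 in IFN gamma cells, against 5.10, 4.61 and 5.64 in mock cells (6.19 ± 0.47). Both signal through CXCR3 on activated T cells. Cxcl11, the third ligand of that receptor, reached 4.38, 3.77 and 4.62, against 2.77, 2.82 and 2.79 in mock cells (1.46 ± 0.28). The membrane-bound chemokine Cx3cl1 rose by 1.46 ± 0.32, with an adjusted p of 0.081 from the 6 arrays alone, and Cxcl12 by 0.68 ± 0.16, a call lost without mock array 2 (adjusted p = 0.079). The monocyte chemokine genes Ccl2 and Ccl7 differed by 0.33 ± 0.14 and 0.86 ± 0.30, with adjusted p of 0.22 and 0.11 without the block and of 0.0082 and 0.0018 with it. Outside the list, the eosinophil chemokine Ccl11 rose by 3.47 ± 0.24, with arrays at 6.19, 6.24 and 6.40 in IFN gamma cells and 2.81, 2.88 and 2.73 in mock cells.

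Cd274, which encodes PD-L1, the ligand that restrains T cells through PD-1, read 6.62, 6.78 and 6.46 in IFN gamma cells, against 2.67, 2.18 and 2.66 in mock cells (4.12 ± 0.39, adjusted p = 1.7e-09). Icam1, the adhesion ligand of leukocyte integrins, read 5.29, 4.37 and 5.02, against 2.4, 2.41 and 2.4 in mock cells (2.49 ± 0.16, adjusted p = 1.5e-13). Testing required log2 over 4 on at least 3 arrays. Among the IFN gamma and mock groups and IFN alpha at 30-60 min, Icam1 met this only with IFN gamma at 30-60 and 0-60 min. Its place in the counts of called genes is therefore partly set by the filter. Cd274 and Icam1 were the 2 of 8 tested checkpoint and cell contact genes called without the block. With the block there were 3 higher and 1 lower, adding the adhesion molecule genes Vcam1 (0.51 ± 0.19, adjusted p = 0.14 without the block and 0.00033 with it) and Alcam (-0.42 ± 0.20, adjusted p = 0.33 and 0.0063).

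Antiviral genes, listed as targets of ISGF3, had 11 of 31 tested members called higher and 0 lower, with a median of 0.28. Samhd1, the dNTP hydrolase that restricts retroviruses, read 10.54, 10.88 and 10.62 in IFN gamma cells, against 6.42, 6.15 and 5.82 in mock cells (4.55 ± 0.19, adjusted p = 1.7e-18). Rtp4 rose by 3.71 ± 0.54, although its other kept probe set differed by 0.06 and was not called. The other members rose less: Oasl2 by 2.05 ± 0.45, Xaf1 by 1.92 ± 0.39 and Ifitm3, a membrane restriction factor, by 1.68 ± 0.21. Ifit1, which binds foreign RNA caps, read 5.37, 6.07 and 6.58 in IFN gamma cells, against 3.72, 4.34 and 4.09 in mock cells (1.96 ± 0.50). Its call was lost without IFN gamma array 3 (adjusted p = 0.09) or mock array 1 (adjusted p = 0.061). The other 20 members did not pass, among them the dynamin-like GTPases Mx1 (0.12 ± 0.42) and Mx2 (0.01 ± 0.43), Rsad2, or viperin (0.13 ± 0.59), and the deubiquitinase-like Usp18 (0.26 ± 0.50).

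The PARP and DTX genes, ADP-ribosyl transferases and their ubiquitin ligase partner, had 6 of 9 members called higher and a median of 1.26. Dtx3l and Parp9, which form a complex, differed by 3.12 ± 0.37 and 3.03 ± 0.26, Parp3 by 2.94 ± 0.36 and Parp14 by 2.52 ± 0.27. Zc3hav1, the zinc-finger antiviral protein, rose by 0.63 ± 0.15, a call lost without IFN gamma array 1 (adjusted p = 0.058) or mock array 2 (adjusted p = 0.06). Among 10 tested TRIM genes, 4 were called higher, led by the antibody receptor Trim21 (3.80 ± 0.26) and Trim25, the ligase that activates RIG-I (2.43 ± 0.14). Trim30a (0.98 ± 0.22) had an adjusted p of 0.08 from the 6 arrays alone, and Pml (0.83 ± 0.24), the organiser of nuclear bodies, kept its call only in the fits without IFN gamma array 1 or mock array 2.

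Sensors and cell death genes also rose. Of 14 pattern recognition genes, 4 were called higher. Sting1, the adaptor of cytosolic DNA sensing, read 7.42, 7.97 and 7.61 in IFN gamma cells, against 2.69, 3.93 and 2.79 in mock cells (4.52 ± 0.42). The peptidoglycan sensor Nod1 rose by 2.66 ± 0.17, the Toll-like receptor adaptor Myd88 by 2.31 ± 0.20 and the DNA-binding Ifi204 by 1.91 ± 0.29. Of 24 death receptor, caspase and BCL2 genes, 6 were called higher and 0 lower: Casp4, the mouse caspase-11 that senses lipopolysaccharide (2.37 ± 0.20), Casp12 (2.16 ± 0.30, with its other probe set at 0.94 and not called), Xaf1, the death receptor Fas (1.62 ± 0.21), the TNF receptor Tnfrsf1a (1.37 ± 0.23) and the necroptosis effector Mlkl (0.95 ± 0.19). Mlkl had an adjusted p of 0.093 from the 6 arrays alone. With the block, 8 of the 24 were higher and 3 lower, against 5.75% and 6.41% of all genes.

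Of 16 NF-kB pathway genes, 6 were called higher, with a list median of 0.14. Tnfaip2 read 11.78, 11.68 and 12.02 in IFN gamma cells, against 8.43, 8.33 and 8.6 in mock cells (3.37 ± 0.16). The mitochondrial superoxide dismutase Sod2 rose by 2.26 ± 0.20, and Icam1 and Bcl3 are counted here too. Tnip1, an inhibitor of the pathway, rose by 0.78 ± 0.16. The call of Birc3 (0.70 ± 0.20) was lost in each fit without 1 array except that without IFN gamma array 2. Of 6 complement and coagulation genes, 3 were called higher, the C1 proteases C1s1 (2.80 ± 0.19) and C1ra (1.68 ± 0.21) and F3, tissue factor (0.72 ± 0.17). Among 10 effector genes, Apol6 rose by 4.08 ± 0.32, Slfn8 by 1.99 ± 0.34 and Nampt, an enzyme of NAD synthesis, by 1.74 ± 0.31. Lap3, an aminopeptidase, was the last of the 4 called there (0.76 ± 0.20), a call lost without IFN gamma array 1 (adjusted p = 0.094), mock array 2 (0.089) or mock array 3 (0.069). The block added 1 higher gene each to the antiviral and effector lists, 1 higher and 1 lower gene each to the TRIM, pattern recognition and NF-kB lists, and 1 lower gene to the complement list.

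The largest rises also held genes outside the lists. Ggct, an enzyme of glutathione breakdown, read 9.17, 8.74 and 8.77 in IFN gamma cells, against 4.52, 4.22 and 3.52 in mock cells (4.81 ± 0.29, adjusted p = 4.6e-14). Rnd1, a small GTPase that loosens the actin cytoskeleton, read 9.52, 9.44 and 9.79 against 5.45, 5.12 and 6.04 in mock cells (4.05 ± 0.22). Tifa, an adaptor that joins TRAF proteins, rose by 3.74 ± 0.32, and the gene BC023105 by 3.96 ± 0.26. All 25 of the largest rises had every IFN gamma array above every mock array, by construction of the rule that named them, and each kept its call in every fit without 1 array.

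Single genes rose in some lists that are not interferon genes. In glycolysis and hypoxia genes, 2 of 23 were called higher and 2 lower, against 3.82% and 2.06% of all genes. With the block 5 were higher and 3 lower, against 5.75% and 6.41% of all genes. The list median was -0.02. Hk2, a hexokinase, read 12.20, 12.28 and 12.14 in IFN gamma cells, against 9.93, 10.03 and 9.90 in mock cells (2.25 ± 0.11, adjusted p = 4.6e-16). Bnip3, a mitochondrial receptor for autophagy, read 8.05, 8.05 and 8.11, against 4.91, 4.68 and 4.87 in mock cells (3.25 ± 0.29). In mock cells labelled at 0-30 min Bnip3 read 8.71, 8.84 and 8.62, and at 150-180 min 8.75, 8.61 and 8.54, both above its mock level at 30-60 min. Over the whole first hour its mock arrays read 4.29, 6.32 and 6.31, also low. The lower 2, Pfkfb3 (-0.86 ± 0.23) and Egln1 (-0.62 ± 0.17), lost their calls without IFN gamma array 2 or mock array 3, and Egln1 also without IFN gamma array 1 (adjusted p up to 0.15).

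A mock level more than log2 1 below that of both other 30 min windows was seen in 78 of the 365 higher genes (21.4%), in 17 of the 197 lower genes (8.63%) and in 1841 of the 8987 genes not called (20.5%). Of the genes named in the comparison with mock cells it was seen in 21 of 115 higher and 5 of 58 lower ones. The higher ones included Irgm1, Ggct, Rtp4, Trim21, Dtx3l, Parp9, Nod1, Casp4, Ifit1 and H2-D1, and the lower ones Bnc1, Egln1 and Scd1. Its part in the results was not tested. Other genes that rose were Fst, follistatin, which binds activin (3.39 ± 0.18), the receptor Notch1 (1.77 ± 0.27), the phosphodiesterase Pde4b (2.30 ± 0.22) and Has2, which makes hyaluronan (1.22 ± 0.20).

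**Figure D2:**
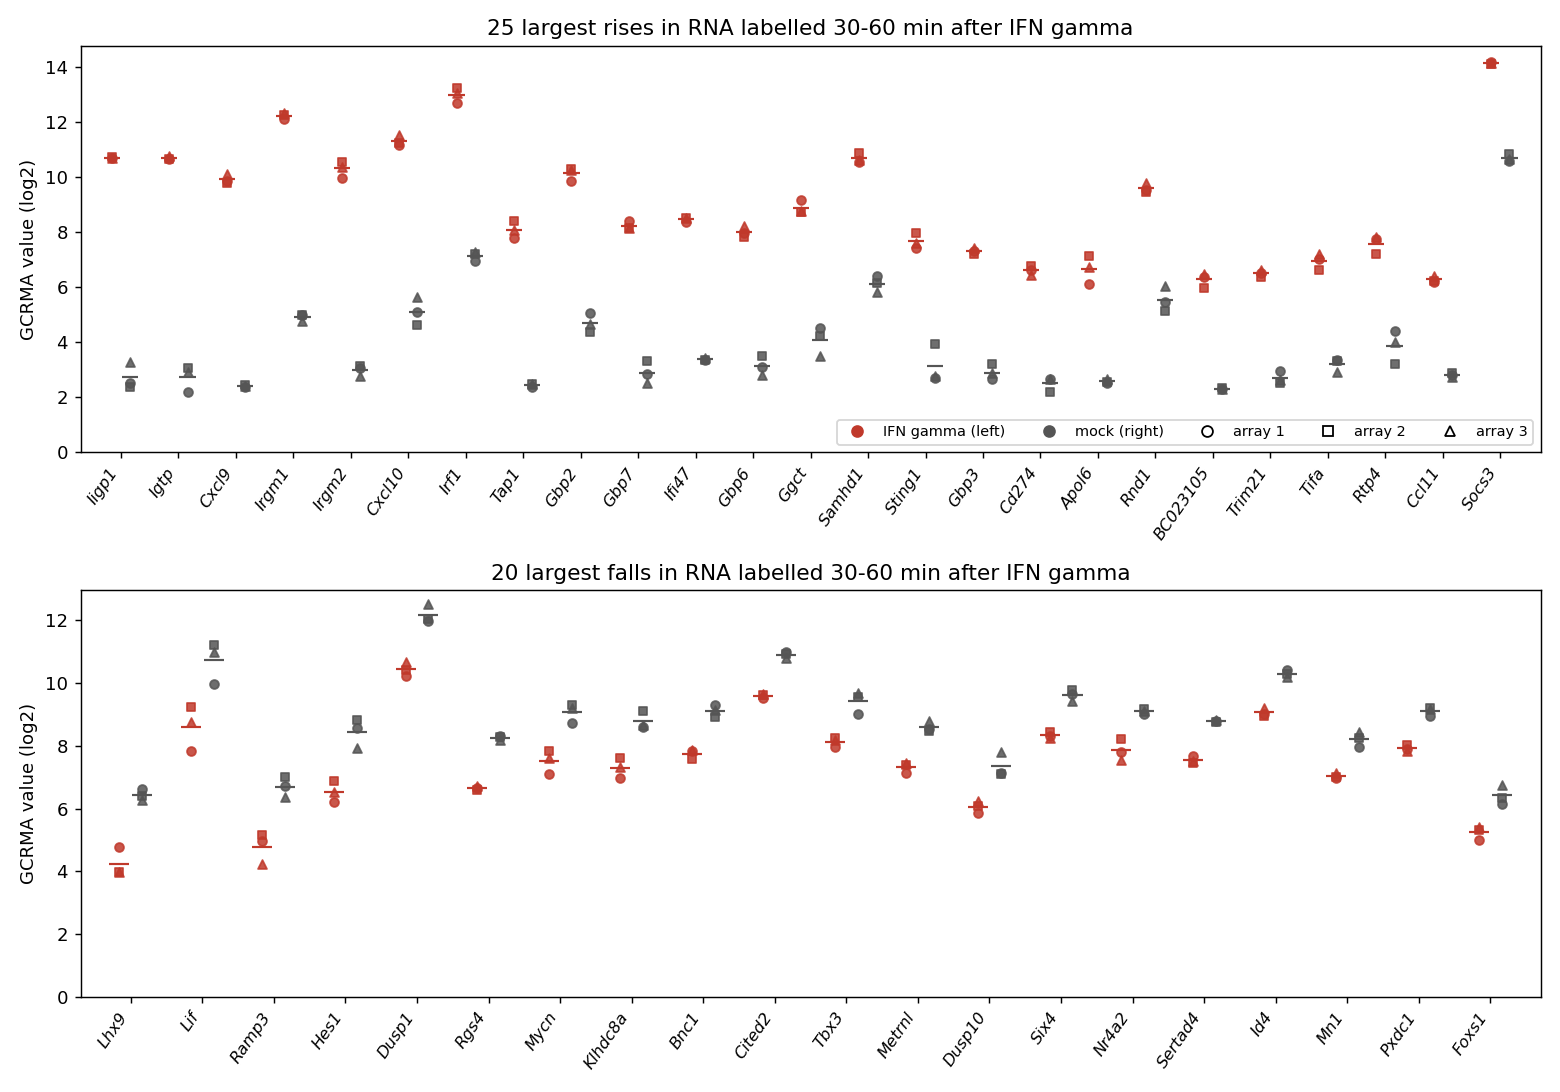
GCRMA log2 values on each array for the 25 largest rises (top) and the 20 largest falls (bottom), with IFN gamma in red at the left and mock in grey at the right of each gene, lines at the group means and marker shapes for the array number. In these genes no IFN gamma array overlaps a mock array, and several mock levels of the upper panel lie between 2 and 4, near background.

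The falls were smaller and touched other genes. The deepest was Lhx9, a LIM homeobox factor, at 4.79, 3.98 and 3.97 in IFN gamma cells, against 6.61, 6.41 and 6.28 in mock cells (-2.19 ± 0.32, adjusted p = 6.7e-06). Lif, leukaemia inhibitory factor, a cytokine of the IL-6 family, read 7.83, 9.24 and 8.76 in IFN gamma cells, against 9.95, 11.21 and 11.0 in mock cells. Its 3 same-number differences were -2.12, -1.97 and -2.24, closer to each other than the arrays of either group were (-2.11 ± 0.29, adjusted p = 2.2e-06, and 2.1e-12 with the block). Since whole dishes were measured, fewer cells that make an RNA and less of that RNA per cell cannot be told apart here.

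Genes that restrain MAP kinase and receptor tyrosine kinase signals were lower in 5 of 19 cases and higher in 0, with a median of -0.31, against 2.06% called lower and a median of -0.05 over all genes. Dusp1, the phosphatase that switches off p38 and JNK and is an immediate-early gene itself, read 10.22, 10.40 and 10.68 in IFN gamma cells, against 11.97, 12.03 and 12.52 in mock cells (-1.74 ± 0.23, adjusted p = 1.6e-06). This is 0.299 of the mock level. Dusp10, of the same family, fell by 1.29 (adjusted p = 0.00018), although its other probe set, at -0.71, was not called. The other calls were less firm: Dusp4 (-0.73 ± 0.18) lost its call without IFN gamma array 2 (adjusted p = 0.054), Spry4 (-1.0 ± 0.27) kept it only without IFN gamma array 2 or mock array 3, and Dusp14 (-0.90 ± 0.25) only without IFN gamma array 1. Dusp6 and Spry2, also on the list, differed by 0.32 ± 0.24 and -0.34 ± 0.20 and did not pass. With the block, 7 members were lower, against 6.41% of all genes.

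G protein signalling genes had 5 of 16 lower and 2 higher. Rgs4, which speeds GTP hydrolysis by G protein alpha subunits, read 6.64, 6.59 and 6.72 in IFN gamma cells, against 8.32, 8.28 and 8.19 in mock cells (-1.61 ± 0.13, adjusted p = 6e-11). Its relatives Rgs3 and Rgs2 fell by 0.97 and 0.89. Ramp3, a partner of calcitonin-family receptors, read 4.95, 5.15 and 4.24, against 6.73, 7.0 and 6.37 in mock cells (-1.92 ± 0.24). Ptger4, a prostaglandin E2 receptor, fell by 0.96 (adjusted p = 3.1e-05). All 5 kept their calls in every fit without 1 array. The 2 higher members were Pde4b, which degrades cyclic AMP, and the sphingosine-1-phosphate receptor gene S1pr3 (0.35 ± 0.10), which lost its call in 4 of the 6 fits without 1 array. With the block, 7 were lower and 2 higher, against 6.41% and 5.75% of all genes.

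Homeobox and developmental transcription factors were lower in 11 of 41 cases and higher in 3, with a median of -0.30. Of the 11, 6 kept the call in each fit without 1 array, and 6 were called from the 6 arrays alone. After Lhx9 came Tbx3, a T-box repressor, at 7.96, 8.23 and 8.17 in IFN gamma cells, against 9.01, 9.56 and 9.68 in mock cells (-1.30 ± 0.17). Six4 read 8.32, 8.44 and 8.23, against 9.64, 9.79 and 9.42 in mock cells (-1.29 ± 0.16). Gata2 fell by 1.14 and Twist2, a mesenchymal basic helix-loop-helix factor, by 1.04. The neighbouring genes Dlx1 and Dlx2 differed by -0.92 ± 0.15 and -0.95 ± 0.27, the call of Dlx2 being lost in 3 of those fits. The higher member with the largest change was Hoxd8, at 8.50, 8.48 and 8.61 in IFN gamma cells and 6.0, 5.85 and 6.41 in mock cells (2.44 ± 0.20). Its mock arrays read 7.86, 7.71 and 7.78 at 0-30 min and 8.56, 8.56 and 8.58 at 150-180 min, so the mock level was lowest at 30-60 min among the 30 min windows, while its IFN gamma arrays read 8.99, 8.76 and 9.03 at 0-30 min. With the block, 14 of the list were lower and 3 higher, against 6.41% and 5.75% of all genes.

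In the Notch list, Hes1, the repressor that Notch induces, read 6.20, 6.88 and 6.53 in IFN gamma cells, against 8.55, 8.83 and 7.92 in mock cells (-1.90 ± 0.24, adjusted p = 7.2e-07). The ligand gene Jag1 fell by 0.58, a call lost without mock array 3 (adjusted p = 0.053), while the receptor gene Notch1 rose. That made 2 lower and 1 higher of 7 tested, and 3 lower and 1 higher with the block. The TGF-beta and BMP list had 2 of 22 lower and 1 higher, against 2.06% and 3.82% of all genes. Id4, an inhibitor of basic helix-loop-helix factors, read 9.02, 8.94 and 9.21, against 10.41, 10.29 and 10.18 in mock cells (-1.23 ± 0.16, adjusted p = 5.4e-07). Its relatives Id1 and Id3 differed by -0.52 ± 0.20 and -0.59 ± 0.25, and the inhibitory Smad7 by -0.59 ± 0.35. All 3 passed only with the block (adjusted p = 0.034, 0.011 and 0.00064). The block called 8 of the list lower and 4 higher, against 6.41% and 5.75% of all genes. Tgif1, a corepressor (-0.89 ± 0.26), kept its call only without mock array 2.

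Cytokine and growth factor genes were lower in 4 of 25 cases and higher in 1, Il6, at 11.24, 11.39 and 11.44 in IFN gamma cells and 9.78, 10.08 and 10.15 in mock cells (1.35 ± 0.30, adjusted p = 0.0028). Beside Lif the lower ones were Hbegf, an EGF receptor ligand (-0.49 ± 0.12, adjusted p = 0.059 from the 6 arrays alone), Tslp (-1.07 ± 0.25) and Tgfb1 (-1.34 ± 0.39). Tslp lost its call without IFN gamma array 2 (adjusted p = 0.1), and Tgfb1 kept it only without IFN gamma array 2 or mock array 3. With the block, 9 members were called lower and 2 higher, against 6.41% and 5.75% of all genes.

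Cell cycle genes had 3 of 32 lower and 0 higher, against 2.06% and 3.82% of all genes. With the block 7 were lower, against 6.41% of all genes. Mycn read 7.09, 7.82 and 7.62 in IFN gamma cells, against 8.71, 9.31 and 9.21 in mock cells (-1.56 ± 0.20, adjusted p = 5.4e-07), although its other probe set, at -0.69, was not called. Ccnd1, cyclin D1, which drives entry into S phase, read 7.87, 7.86 and 7.52, against 8.80, 8.85 and 8.62 in mock cells (-1.0 ± 0.18, adjusted p = 0.00017). Myc, the last of the 3, read 10.83, 11.41 and 11.51, against 11.64, 11.89 and 12.20 in mock cells, and the groups did not overlap, though the highest IFN gamma array was close to the lowest mock array. Its adjusted p was 0.044, 0.0014 with the block and 0.19 from the 6 arrays alone, and its call was lost without IFN gamma array 1 or 2 or mock array 2 or 3 (adjusted p up to 0.34).

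Immediate-early transcription factors went both ways, 3 higher and 3 lower of 30. Zfp36, which destabilises AU-rich mRNAs, rose by 1.33 ± 0.24, Atf3 by 1.08 ± 0.17 and Egr2 by 0.66 ± 0.18, the last with its call lost without IFN gamma array 1 (adjusted p = 0.054), IFN gamma array 3 (0.069) or mock array 2 (0.11). The orphan nuclear receptor genes Nr4a2 and Nr4a3 fell by 1.25 and 1.12. Nr4a2 read 7.79, 8.20 and 7.55 in IFN gamma cells and 9.01, 9.16 and 9.12 in mock cells. Fos was at 12.99, 13.12 and 13.09 in IFN gamma cells and 12.28, 12.42 and 12.59 in mock cells (0.64 ± 0.23), with an adjusted p of 0.11 without the block and 0.00079 with it. Egr1, Jun and Junb, which fresh serum is known to induce, differed by 0.07 ± 0.10, 0.07 ± 0.16 and -0.11 ± 0.33. With the block the list had 6 higher and 9 lower, against 5.75% and 6.41% of all genes.

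Further falls named by size lay outside these groups. Cited2, a coactivator-binding antagonist of HIF, read 9.51, 9.62 and 9.65 in IFN gamma cells, against 10.98, 10.93 and 10.80 in mock cells (-1.31 ± 0.17, adjusted p = 8.2e-07). Metrnl, a secreted meteorin-like factor, fell by 1.29, the zinc-finger gene Bnc1 by 1.37, Klhdc8a by 1.49, Sertad4 by 1.24, Pxdc1 by 1.18 and the coregulator gene Mn1 by 1.18. Foxs1, a forkhead factor, fell by 1.17, and its call was lost without IFN gamma array 1 (adjusted p = 0.1) or mock array 3 (0.13). Ephrin receptors Epha2 and Ephb3 were the 2 lower of 20 receptor tyrosine kinases and ephrins (-1.13 ± 0.23 and -0.89 ± 0.19). The block gave 5 lower, against 6.41% of all genes.

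Several lists gave at most 3 calls without the block. Over all genes 3.82% were called higher and 2.06% lower, and 5.75% and 6.41% with the block. The 22 tested cytosolic ribosomal protein genes, the 26 oxidative phosphorylation genes, the 18 clock genes and the 8 Hedgehog genes had 0 calls, with medians of -0.01, -0.02, -0.15 and 0.02. With the block 3 of the clock genes were called, all lower. Sterol and lipid synthesis genes had 3 of 23 lower, the desaturase gene Scd2 (-0.58 ± 0.11) and, with calls lost in at least 5 of the 6 fits without 1 array, Scd1 and Sqle, and 9 lower with the block. Heat shock chaperones had 2 of 13 lower, Hsph1 and Cryab, neither stable when an array was left out, and 4 lower with the block. The sterol and heat shock lists lay above the lower shares of all genes, with and without the block. Extracellular matrix genes had 2 of 32 higher, Has2 and Adamts1 (0.95 ± 0.13), and 1 lower, Lox (-0.40 ± 0.11), whose call was lost without IFN gamma array 1 or 2 or mock array 1 or 3 (adjusted p up to 0.13). With the block the matrix list had 4 higher and 3 lower. Actb, a cytoskeletal reference gene, differed by -0.11 ± 0.12.

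**Figure D3:**
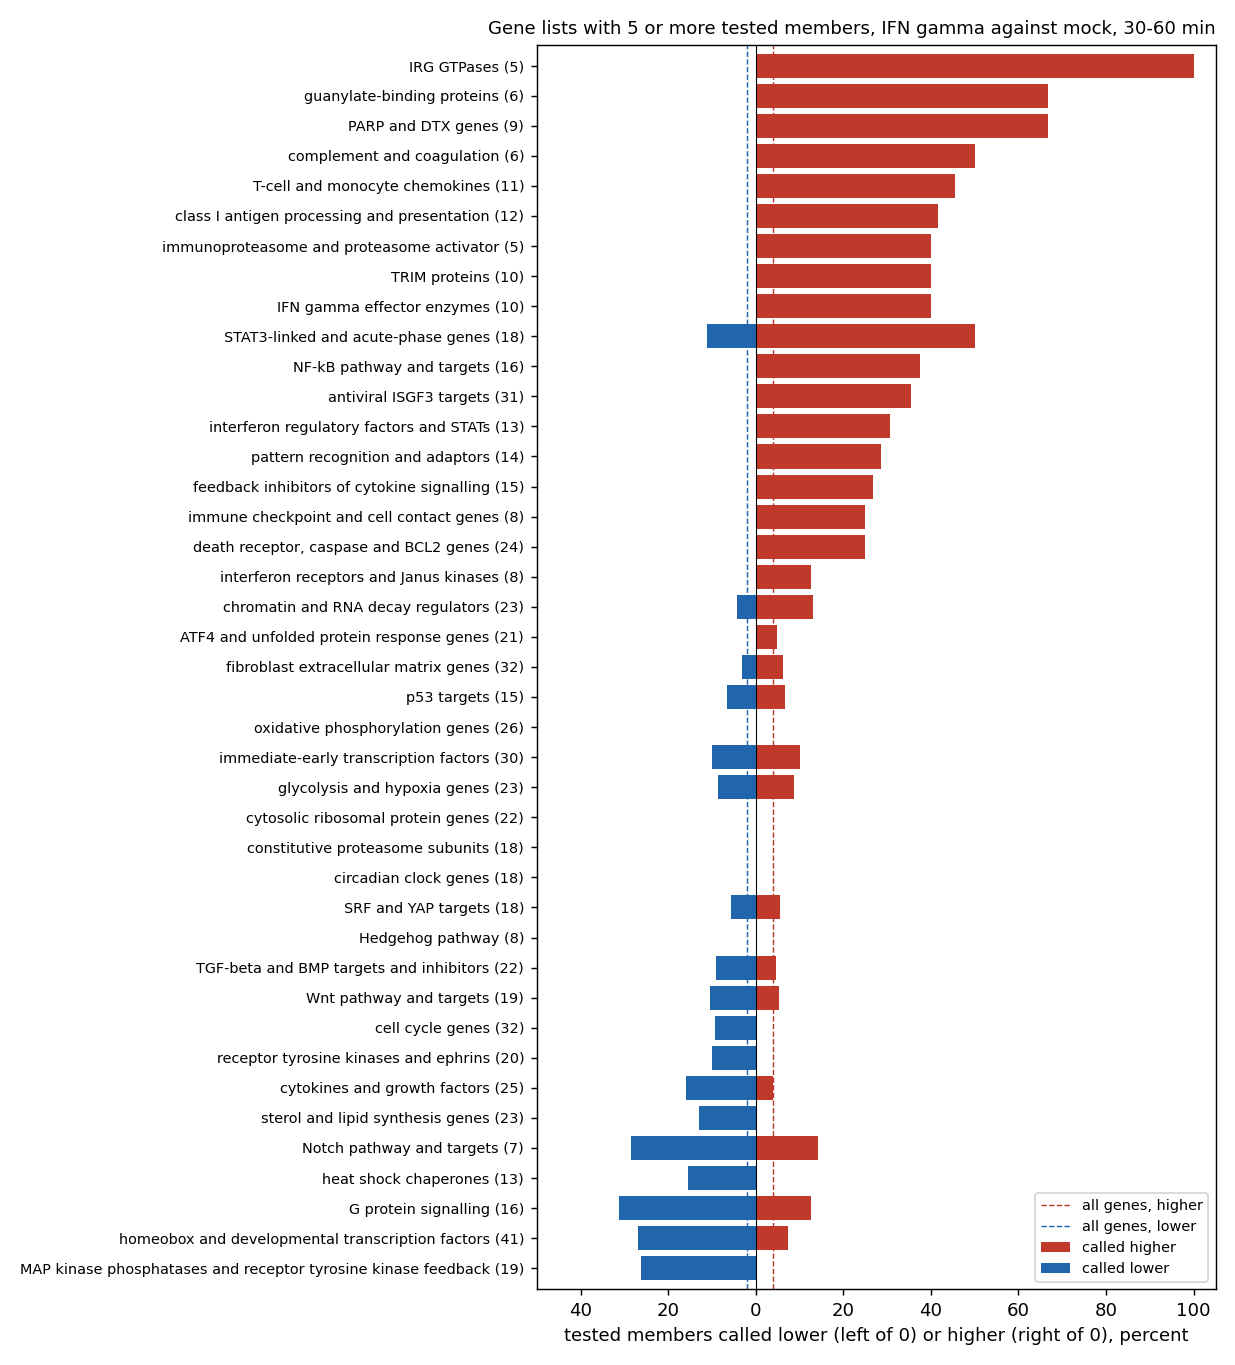
Share of tested members called lower (blue, left of 0) or higher (red, right of 0) in IFN gamma against mock cells at 30-60 min, in percent, for each list with 5 or more tested genes, whose number is in brackets. Dashed lines mark the shares over all genes, 2.06% lower and 3.82% higher, and the bars run from the IRG GTPases, all 5 higher, to the MAP kinase phosphatases and feedback genes, 5 of 19 lower.

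The comparison with the first 30 min shows which responses were called there already. At 0-30 min IFN gamma cells differed from mock cells in 72 genes called higher (0.754%) and 4 lower (0.0419%). Of those, 68 and 3 were called the same way at 30-60 min, which is 18.6% of the higher and 1.52% of the lower calls of the later window. At 0-30 min, 329 of the 365 higher and 149 of the 197 lower genes had the sign of the later window. Their median log2 differences at 0-30 min were small, 0.26 and -0.15, against -0.02 over all genes. The test of the difference between the 2 responses, with each window's own mock arrays, called 121 genes with a larger log2 response at 30-60 min (1.27%) and 22 with a lower one (0.23%), and 222 and 123 with the replicate block. Among genes with a group mean of at least log2 6, Gbp2 gained most, by 4.29 ± 0.50 (adjusted p = 9.2e-07). At 0-30 min it read 7.56, 7.22 and 7.33 in IFN gamma cells and 6.46, 6.08 and 6.11 in mock cells, a response that was not called (adjusted p = 0.23). Cxcl9 gained 4.14 ± 0.68, Samhd1 3.81 ± 0.26, Irgm1 3.81 ± 0.39, Gbp7 3.79 ± 0.50 and Cd274 3.54 ± 0.56. Il18rap, a chain of the IL-18 receptor, gained 3.25 ± 0.31. Its arrays at 0-30 min read 5.14, 4.58 and 4.96 in IFN gamma cells and 4.78, 4.66 and 4.66 in mock cells, overlapping, and its difference at 30-60 min was 3.44 ± 0.22. Mock levels of Gbp2, Irgm1, Samhd1, Gbp7 and Il18rap were lower at 30-60 min than at 0-30 min, and this fall is part of their gains. The mock level of Cxcl9 was at background in both windows.

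Irf1, whose response was already 5.14 ± 0.19 at 0-30 min, had a gain of 0.72 ± 0.27 that did not pass (adjusted p = 0.34). In the IRG list 4 of 5 gained, and in the GBP list 4 of 6. Among the falls, Rgs4 (-1.30 ± 0.19, adjusted p = 3.7e-05), Mn1 (-1.50 ± 0.24), Six4 (-1.34 ± 0.23), Sertad4 (-1.29 ± 0.21), Lhx9 (-1.84 ± 0.45), Ramp3 (-1.47 ± 0.34), Dusp1 (-1.31 ± 0.33) and Bnc1 (-1.15 ± 0.28) had a lower response at 30-60 min. In Rgs4 and Six4 the mock level was higher in the later window. Rgs4 mock arrays read 6.40, 6.59 and 6.57 at 0-30 min, and its IFN gamma arrays 6.19, 6.22 and 6.21. Lif and Hes1 were already lower at 0-30 min (-1.22 ± 0.29 and -1.23 ± 0.24), and their change in response did not pass (adjusted p = 0.65 and 0.81).

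The window of 150-180 min was set against that of 30-60 min to show which responses grew or shrank later. At 150-180 min 417 genes were called higher (4.37%) and 147 lower (1.54%). They shared 214 higher and 42 lower calls with 30-60 min, 58.6% and 21.3% of the calls of the earlier window and 51.3% and 28.6% of those of the later one, and 1 gene lower at 30-60 min was called higher later. The test of the difference called 115 genes with a larger response at 150-180 min (1.2%) and 67 with a lower one (0.702%), and 311 and 234 with the block. It uses the same 6 arrays of 30-60 min as the comparison with 0-30 min, so the 2 tests are not independent.

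Nlrc5 was the clearest late gene. It read 7.59, 7.56 and 7.78 in IFN gamma cells at 150-180 min and 2.37, 2.35 and 2.34 in mock cells, and its response grew by 5.28 ± 0.18 (adjusted p = 1.4e-20). Gbp2b grew by 4.41 ± 0.15 and Psmb10 by 4.35 ± 0.42, each also at background in the 30-60 min window. Gm4951 grew by 4.66 ± 0.33, Oasl2 by 4.83 ± 0.64, Gbp6 by 4.51 ± 0.44, BC023105 by 3.89 ± 0.37 and Cd274 by 3.82 ± 0.56. All 6 GBP genes had a larger response later, and so did 12 of the 31 antiviral genes, while 2 of those had a lower one. Testing required log2 over 4 on at least 3 arrays. Gbp2b and Nlrc5 met this with IFN gamma at 150-180 min and were at background in IFN gamma and mock cells of the other windows. A count of later growth that includes such genes is partly set by the filter.

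Other genes had a response at 30-60 min that was smaller by 150-180 min. Cped1 had a response of 2.47 at 0-30 min, 3.09 ± 0.23 at 30-60 min and 0.69 at 150-180 min, a decline by -2.4 ± 0.32 (adjusted p = 8e-06). Ifitm5 declined by the same size, -2.4 ± 0.33, Serpina3n, a serine protease inhibitor of the acute phase, by -2.12 ± 0.38, Itpkc by -1.89 ± 0.37, Osgin1 by -1.77 ± 0.37 and Usp27x by -1.75 ± 0.45. Pde4b declined by -2.09 ± 0.31 and Bnip3 by -2.13 ± 0.41, and both had a mock level at 30-60 min below that of the other 30 min windows. So did Serpina3n, Ifitm5 and Usp27x, while Cped1, Itpkc and Osgin1 did not. Pde4b mock arrays read 8.35, 9.11 and 8.46 at 30-60 min, against 9.41, 9.60 and 9.65 at 0-30 min and 10.25, 10.16 and 10.17 at 150-180 min. Icam1 was above background only with IFN gamma at 30-60 min among the 30 min windows: at 150-180 min it read 2.38, 2.44 and 2.38 in IFN gamma cells and 2.38, 2.38 and 2.37 in mock cells, a decline by -2.46 ± 0.22 (adjusted p = 2.8e-09). Since Icam1 met the filter through the arrays in which it is high, this decline is partly set by the filter.

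**Figure D4:**
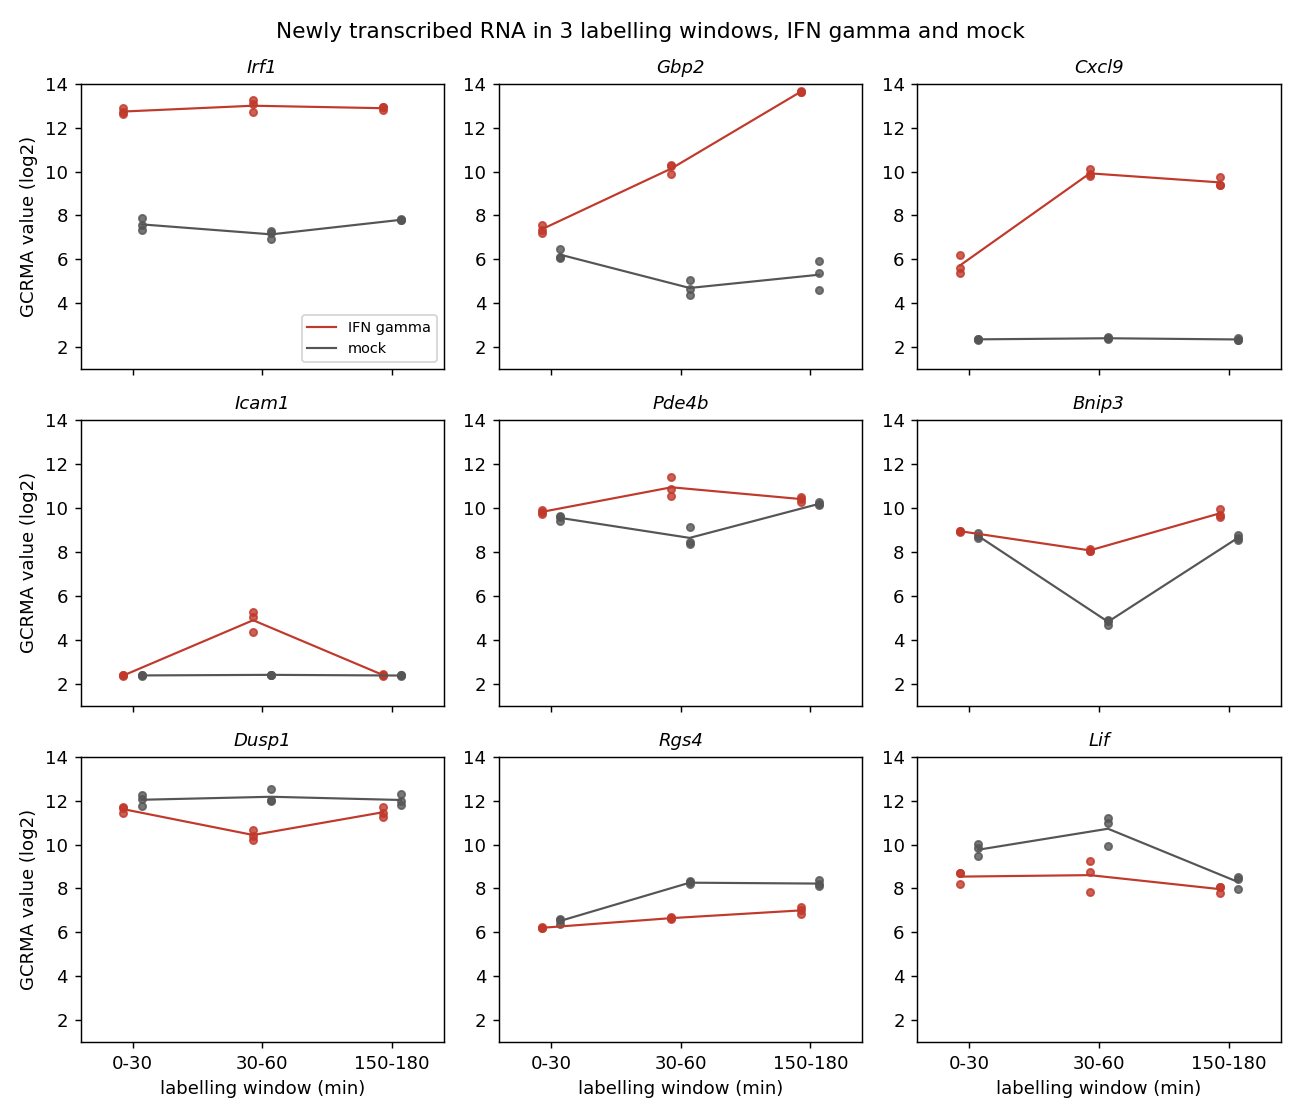
GCRMA log2 values (y axis) of 9 genes in the labelling windows 0-30, 30-60 and 150-180 min (x axis), with points for the 3 arrays of each group, lines through the means, IFN gamma in red and mock in grey. Irf1 is high from the first window, Gbp2 climbs through all 3, Icam1 leaves background only at 30-60 min, and the mock line of Bnip3 dips at 30-60 min.

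Labelling over the whole first hour, at 200 µM 4sU on other arrays, gave 366 genes higher (3.83%) and 277 lower (2.9%). Of the 365 higher genes at 30-60 min, 244 were called higher there too and 357 had the same sign, and of the 197 lower genes, 72 were called lower there and 178 had the same sign. The 4sU dose differed, so sizes were not compared.

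Against IFN alpha in the same window, IFN gamma cells had 260 genes higher (2.72%) and 284 lower (2.97%), a direct test in which no mock array enters, and 437 and 549 with the block. Cxcl9 stood furthest above, 9.87, 9.77 and 10.10 in IFN gamma cells against 4.19, 4.54 and 4.90 in IFN alpha cells (5.37 ± 0.48, adjusted p = 6.9e-10). Ggct (3.61 ± 0.29), Ccl11 (3.28 ± 0.24), Il18rap (3.27 ± 0.22), the retinoic acid hydroxylase gene Cyp26b1 (3.23 ± 0.40), Rnd1 (2.92 ± 0.22), Tifa (2.86 ± 0.32) and Sting1 (2.86 ± 0.42) followed. Ifit1 stood far below, at 5.37, 6.07 and 6.58 in IFN gamma cells against 12.63, 13.30 and 13.16 in IFN alpha cells (-7.02 ± 0.50). Ifit3 (-7.21 ± 0.40), Mx2 (-6.55 ± 0.43), Usp18 (-6.44 ± 0.50), Rsad2 (-6.22 ± 0.59), Mx1 (-5.50 ± 0.42), Tor3a (-4.49 ± 0.28) and Ddx58, the RIG-I sensor (-3.96 ± 0.27), were lower too. By list, 20 of 31 antiviral genes, 7 of 10 TRIM genes and 5 of 9 PARP and DTX genes were lower with IFN gamma. In the same lists 2, 0 and 1 were higher with IFN gamma. Samhd1, of the antiviral list, differed from mock by 4.55 with IFN gamma and by 2.64 with IFN alpha. Of the 5 IRG and the 6 GBP genes 0 were called in either direction, with medians of 0.78 and 0.18 (limma, adjusted over 9549 genes). With the block 3 IRG genes were higher with IFN gamma than with IFN alpha, Iigp1 (1.14 ± 0.21, adjusted p = 0.00039), Igtp (0.89 ± 0.25, 0.021) and Irgm1 (0.78 ± 0.20, 0.013), and Gbp3 was lower (-0.70 ± 0.17, 0.0074). The STAT3-linked list had 7 of 18 higher with IFN gamma and 1 lower. Bnip3 read 5.43, 5.61 and 5.63 in IFN alpha cells, between the IFN gamma and mock arrays of the window.

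The cells carried the label's markers. All 10 fibroblast markers had means above log2 4 in both groups, with a median of 11.65, and summed linear levels of 34840 to 40280 in IFN gamma cells and 35340 to 38030 in mock cells. Of the 12 macrophage markers only Cd14 was above log2 4 (5.15 in IFN gamma cells and 4.97 in mock cells), of the 9 measured adipocyte and muscle markers only Lpl was (6.90 and 6.88), and none of the measured T and B cell (7), epithelial (8) or endothelial (8) markers was. The summed levels of the macrophage markers were 112.7 to 125.3 in IFN gamma cells and 107.7 to 113.5 in mock cells. The array medians of the 6 arrays were 3.15 to 3.24, and correlations between arrays of a group 0.970 to 0.986. Arrays give no counts, so their number limits the precision.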

How the data were processed

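Whole-genome mouse arrays read 4sU-labelled RNA of NIH-3T3 cells in 12 groups of 3. The deposited values are log2 signals. The submitters' processing notes name GCRMA as the authors' method, whose version is not given in the sources used here. GCRMA models background, so low values are pulled together near log2 2 to 3. Each gene was read by 1 probe set, the one with the highest mean among those above log2 4 on at least 3 of 36 arrays, leaving 9549 genes. Differences were fitted with limma 3.58.1 (R 4.3.3), with 12 group means, an intensity trend and Benjamini-Hochberg adjustment over all genes, and genes were called at an adjusted p under 0.05. Deviations from the group mean correlated at 0.32 to 0.69 between same-numbered IFN gamma and mock arrays and at -0.58 to 0.01 between others, so the numbers pair the arrays, a link the labels do not state, and a fit with the number as a block is given beside counts and genes it changes. Alternatives changed the filter, scaling, weights, arrays and probe sets.

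Members and lists were chosen with earlier results of these data known. Named genes were a fixed panel, the 25 largest rises and 20 largest falls with groups apart and a higher mean of at least log2 6, up to 6 called members of each list, members that did not pass, and the 8 largest differences each way in other contrasts. Il6st, Osmr, Bcl6, Dlx1, Dlx2 and S1pr3, and the genes under other observations, were named after their values were seen. Of 45101 probe sets, 34945 carried 1 gene symbol, 932 several and 9160 none.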

Additional observations from a re-analysis of the deposited data

Results flagged for a closer look

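The response to IFN gamma differed between labelling windows by a direct test. Between 0-30 and 30-60 min, 121 genes had a higher response and 22 a lower one in the later window. Among genes with a mean of at least log2 6 in a group compared, the largest gains in log2 response were those of Gbp2 (4.29), Cxcl9 (4.14), Samhd1 (3.81), Irgm1 (3.81), Gbp7 (3.79), Cd274 (3.54), Il18rap (3.25) and BC023105 (3.18). A lower mock level at 30-60 min is part of the gains of Gbp2, Irgm1, Samhd1, Gbp7 and Il18rap. The largest losses were those of Lhx9 (-1.84), Mn1 (-1.50), Ramp3 (-1.47), Six4 (-1.34), Dusp1 (-1.31), Rgs4 (-1.30), Sertad4 (-1.29) and Bnc1 (-1.15).

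Between 30-60 and 150-180 min, 115 genes had a higher response and 67 a lower one in the later window. By the same limit on level, the response grew most for Nlrc5 (5.28), Oasl2 (4.83), Gm4951 (4.66), Gbp6 (4.51), Gbp2b (4.41), Psmb10 (4.35), BC023105 (3.89) and Cd274 (3.82). It shrank most, by that limit, which leaves out Icam1, for Cped1 (-2.40), Ifitm5 (-2.40), Bnip3 (-2.13), Serpina3n (-2.12), Pde4b (-2.09), Itpkc (-1.89), Osgin1 (-1.77) and Usp27x (-1.75). IFN gamma cells differed from IFN alpha cells of the same window in 260 genes that were higher and 284 that were lower.

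Probe sets outside the comparison of named genes also moved between IFN gamma and mock cells. Of 3380 tested probe sets with no gene symbol, 108 were called higher and 43 lower by limma. Of 512 with several symbols, 20 were called higher and 4 lower. For comparison, 523 of the 17982 tested probe sets with a unique symbol were called higher and 252 lower. Probe sets with no symbol were thus called about as often as those with a unique symbol, and the difference was not tested.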

How the results depend on the processing

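Of the 185 named genes 173 were called, and none of these changed direction under the alternatives that read 1 probe set per gene. The direction of uncalled genes was not checked. Of the 173, 139 kept the call in every fit without 1 array. Among all called genes with other kept probe sets, 8 of 170 higher and 5 of 103 lower ones had another probe set of the opposite sign. Numbers of calls moved more. The replicate block gave 549 higher and 612 lower genes in IFN gamma against mock cells over all arrays and 571 and 724 over the arrays compared. For the response at 30-60 minus 0-30 min the block gave 222 higher and 123 lower over all arrays (354 and 352 over those compared), for 150-180 minus 30-60 min 311 and 234 (454 and 329), and for IFN gamma against IFN alpha 437 and 549 (515 and 670). Array weights, whose iteration met warnings of incomplete convergence, gave 919 and 815, 467 and 311, 872 and 1615, and 1141 and 944 in the same order of comparisons. A 2-fold minimum left 228 and 46 genes against mock, 13 lower in the first window difference, and 136 and 131 against IFN alpha. With only the arrays compared, 96 genes were lower against mock and 181 lower against IFN alpha. Leaving mock 0-60 min array 1 out of the fit, an alternative chosen after seeing the data, gave 344 lower against mock and 59 and 116 lower in the first and second window difference. Without 1 array, calls against mock ranged over 312 to 345 higher and 130 to 199 lower, in the first window difference 93 to 122 and 7 to 22, in the second 97 to 114 and 39 to 71, and against IFN alpha 201 to 239 and 213 to 262. The count of 130 came without IFN gamma array 1 and shared 106 genes with the 197, and the count of 7 came without mock 0-30 min array 2. Causes were not tested. Arrays near log2 2 to 3 limit fold changes of genes at background.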

Other observations

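The following genes were chosen after their values were seen. All 4 tested transcripts of the Hoxd cluster were called higher in IFN gamma than in mock cells, Hoxd3os1 by 3.33 ± 0.21, Hoxd8 by 2.44 ± 0.20, Hoxd3 by 2.32 ± 0.21 and Hoxd9 by 0.92 ± 0.26 (log2 ± SE, limma, adjusted p = 1e-13, 7.9e-11, 4.4e-10 and 0.026). The call of Hoxd9 was lost in 4 of the 6 fits without 1 array. The mock levels of Hoxd8 and Hoxd9 were more than log2 1 below those of both other 30 min windows, and so were those of Steap1 and Steap2 below. None of the 4 Hoxa, 1 Hoxb and 4 Hoxc genes tested was called, with differences of -0.30 to 0.03, 0.04, and -0.49 to 0.34.

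The metalloreductase genes Steap1 and Steap2 differed by 2.15 ± 0.13 and 1.56 ± 0.19, and the metallothioneins Mt1, Mt2 and Mt4, which bind zinc and copper, by 1.19 ± 0.18, 0.91 ± 0.16 and 0.84 ± 0.23, the last call being lost in 4 of the 6 fits without 1 array. Mt4 was near background, with means of 2.84 in mock cells at 0-30 min and 2.91 in IFN alpha cells at 30-60 min. With 16 added to the linear values, its difference was 0.33 and not called (limma, adjusted p = 0.051). The ubiquitin ligase genes Rnf19b and Rnf31 differed by 2.64 ± 0.16 and 1.78 ± 0.25. Among falls, the vasoactive peptide genes Edn1 and Nppb differed by -0.97 ± 0.20 and -1.13 ± 0.24, and the kinase gene Sik1 by -1.25 ± 0.19.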
